A study of Drosophila melanogaster with 10 samples.

Results

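The genes described here are those of the cytosolic ribosomal proteins of Drosophila melanogaster, which build the ribosomes of the cytoplasm and not those of mitochondria. They were taken by name: every gene of the deposited table written as RpL or RpS with a number and an optional letter, the P-stalk genes RpLP0, RpLP1 and RpLP2, and sta, the fly name of the small-subunit protein uS2. This gave 86 of the 11621 genes in the table, 49 of the large subunit and 37 of the small subunit. Of the names, 84 are current symbols and 2 are older ones: RpL37a and RpL37b are now called RpL37-1 and RpL37-2. They are not RpL37A, a separate gene of the large subunit. Gene expression was measured by RNA sequencing of dissected brains. The flies were wild-type W1118 males, a white-eyed laboratory strain, 4 to 7 days old. Of the 10 libraries, 5 were from the HPLC diet, high in protein and low in carbohydrate, with a ratio of 1 part protein to 2 parts carbohydrate. The other 5 were from the LPHC diet, low in protein and high in carbohydrate, with a ratio of 0 to 1 and so without protein. Both diets held 360 g per L, and per the series design the taste response to sucrose was higher on HPLC and lower on LPHC. Nothing in the labels tells if each library is its own pool of animals, so p-values are set against a library-to-library spread that may be technical. The reads counted per library ran from 19834344 to 38402635. No dose, day of feeding or single agent besides the diet is labelled.

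A ribosome is made of a small subunit, which reads the mRNA, and a large subunit, which joins amino acids, each built of ribosomal RNA and 1 copy of most of its proteins. Because the proteins are needed in matched amounts, their genes are usually active together, and in animals the production of ribosomal proteins is raised by amino acids through the kinase TOR. In the fly, loss of 1 gene copy of many of these proteins gives the Minute phenotype of slow growth and short bristles. Several fly ribosomal proteins have a pair of genes, of which 1 is often used mainly in the gonads.

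Ribosomal protein transcripts were higher on HPLC across both subunits. Of the 84 genes that averaged 10 or more normalised counts, 68 rose on HPLC and 0 fell at a limma adjusted p under 0.05, which is 81.0% of those tested. Over all 9896 genes tested, 22.1% were higher and 18.9% lower on HPLC. The changes were small. The median log2 fold change (HPLC minus LPHC, on log2 of the normalised count plus 1) was 0.31 with quartiles of 0.25 and 0.40, against a median of −0.03 for all genes tested. Among the 68 genes that rose, mean counts on HPLC were between 1.13 and 1.66 times those on LPHC, with a median of 1.28 times. In 50 of them every HPLC library lay above every LPHC library, and in the other 18 the diets overlapped. HPLC lay wholly above LPHC in 17.4% of all genes tested and wholly below it in 11.7%. In bulk tissue, a change in the mix of cells and a change in RNA per cell cannot be told apart, and this holds for every value below.

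**Figure D1:**
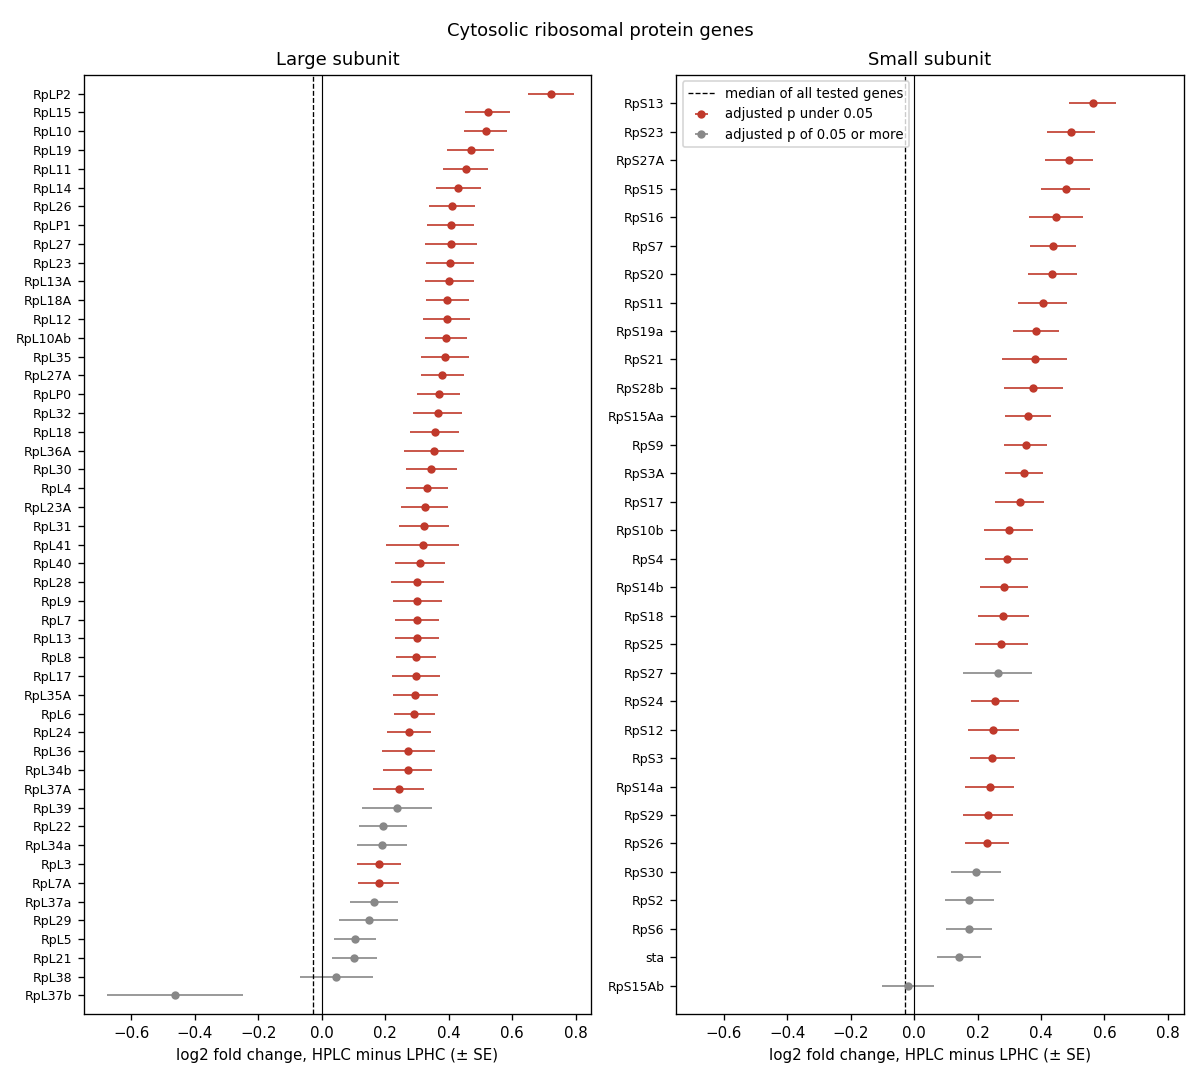
Log2 fold change (HPLC minus LPHC, horizontal axis) with its standard error for tested ribosomal protein genes, large subunit left and small subunit right, ordered by size. Points in red passed the threshold, and the dashed line is the median of all tested genes (−0.03). RpLP2 stands above the rest at 0.72, most genes lie between 0.18 and 0.52, and RpL37b lies below 0 with a wide error.

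The rise was spread over both subunits. Of the large subunit, 40 of 49 genes rose with a median of 0.32, and of the small subunit 28 of 35 with a median of 0.30. The summed counts of large-subunit genes were 1.62 ± 0.0148 times those of the small-subunit genes on HPLC and 1.62 ± 0.0184 times on LPHC (SD, n = 5 each). The ranges of this ratio, 1.60 to 1.64 on each diet, overlapped fully.

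The gene with the largest rise was RpLP2. Its protein, with RpLP1, forms the flexible stalk of the large subunit that draws elongation factors to the ribosome. RpLP2 had 33304, 29756, 38984, 32137 and 36907 normalised counts in the HPLC libraries, against 20058, 21053, 20074, 20251 and 21791 in the LPHC libraries. The diets did not overlap, and the lowest HPLC library stood well clear of the highest LPHC library. The means were 34218 ± 3709 on HPLC and 20645 ± 759 on LPHC (SD, n = 5 each). The log2 fold change with its SE was 0.72 ± 0.07 (limma adjusted p = 3.93e-07).

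RpLP1, the partner of RpLP2, had 25148, 22263, 29225, 22934 and 26505 normalised counts on HPLC, against 19909, 17784, 18775, 18474 and 19754 on LPHC. RpLP0, which anchors the stalk to the ribosome, had 28945, 26778, 31787, 30008 and 31514 on HPLC, against 25105, 23111, 21245, 21885 and 24077 on LPHC. In both genes all HPLC libraries lay above all LPHC libraries, by less than in RpLP2. The log2 fold change was 0.41 ± 0.07 for RpLP1 (limma adjusted p = 0.000329) and 0.37 ± 0.07 for RpLP0 (0.000346). RpL12, the protein at the stalk base, was added after its value was seen and rose by 0.39 ± 0.07 (0.000402). So 4 of 4 genes of the stalk and its base rose, beside 81.0% of all tested ribosomal protein genes. The gap between RpLP2 and its stalk partners was not itself tested.

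RpL15 and RpL10 followed in the large subunit. RpL15 encodes a protein of the core of the subunit and had 20138, 17922, 23361, 18859 and 21565 normalised counts on HPLC, against 14433, 13142, 14206, 14386 and 14452 on LPHC. RpL10, the protein uL16, joins the large subunit late in assembly, near the centre that joins amino acids, and had 20186, 18730, 23117, 18870 and 20863 on HPLC, against 15179, 13246, 13920, 14159 and 14502 on LPHC. Neither gene overlapped between diets, and both were highest in HPLC library 3. The log2 fold change was 0.52 ± 0.07 for RpL15 (limma adjusted p = 1.68e-05) and 0.52 ± 0.07 for RpL10 (9.75e-06). A snoRNA gene lies on the same strand over 6.68% of the exon bases of RpL15, and its reads cannot be told apart from those of RpL15 here.

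RpL11 and RpL5 bind the 5S ribosomal RNA together and enter the large subunit as 1 particle. RpL11 had 13754, 11987, 15438, 13531 and 14943 normalised counts on HPLC, against 10802, 9927, 9685, 9805 and 10496 on LPHC, with no overlap. Its log2 fold change was 0.45 ± 0.07 (limma adjusted p = 6.25e-05). RpL5 had 38852, 36770, 42611, 37085 and 43199 on HPLC, against 38481, 37804, 34740, 35033 and 38173 on LPHC. The RpL5 ranges overlapped, and its value of 0.11 ± 0.07 did not pass (limma adjusted p = 0.219). Under quantile and upper-quartile scaling RpL5 was at −0.04 and −0.01, and scaled to neuron markers it passed at 0.27 (limma adjusted p = 0.0355). Whether the change of RpL11 differs from that of RpL5 was not tested.

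In the small subunit RpS13, the protein uS15, lies at a bridge to the large subunit. It had 17886, 16042, 20351, 17527 and 19763 normalised counts on HPLC, against 13565, 12442, 11544, 11500 and 12843 on LPHC. HPLC library 2 was the lowest on its diet and still above every LPHC library. The log2 fold change of RpS13 was 0.56 ± 0.07 (limma adjusted p = 9.77e-06). RpS23, the protein uS12 of the decoding centre, had 19361, 17469, 22678, 18111 and 22088 normalised counts on HPLC, against 14139, 14382, 13811, 13342 and 14721 on LPHC. The diets were apart, and the log2 fold change of RpS23 was 0.50 ± 0.08 (limma adjusted p = 4.98e-05).

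RpS27A and RpL40 are made as fusions to ubiquitin and so supply the cell with both a ribosomal protein and free ubiquitin. RpS27A had 14432, 13058, 16466, 13087 and 15764 normalised counts on HPLC, against 11486, 10370, 9938, 9528 and 10448 on LPHC. RpL40 had 19994, 17194, 22163, 17738 and 21268 on HPLC, against 16949, 16208, 14899, 14463 and 16594 on LPHC. The diets were apart in both genes, in RpL40 by a narrow gap. The log2 fold change was 0.49 ± 0.08 for RpS27A (limma adjusted p = 6.52e-05) and 0.31 ± 0.08 for RpL40 (0.00449), and RpL40 did not pass under quantile scaling (0.18, limma adjusted p = 0.0567). Ip259 shares 5.91% of the exon bases of RpS27A on the same strand.

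**Figure D2:**
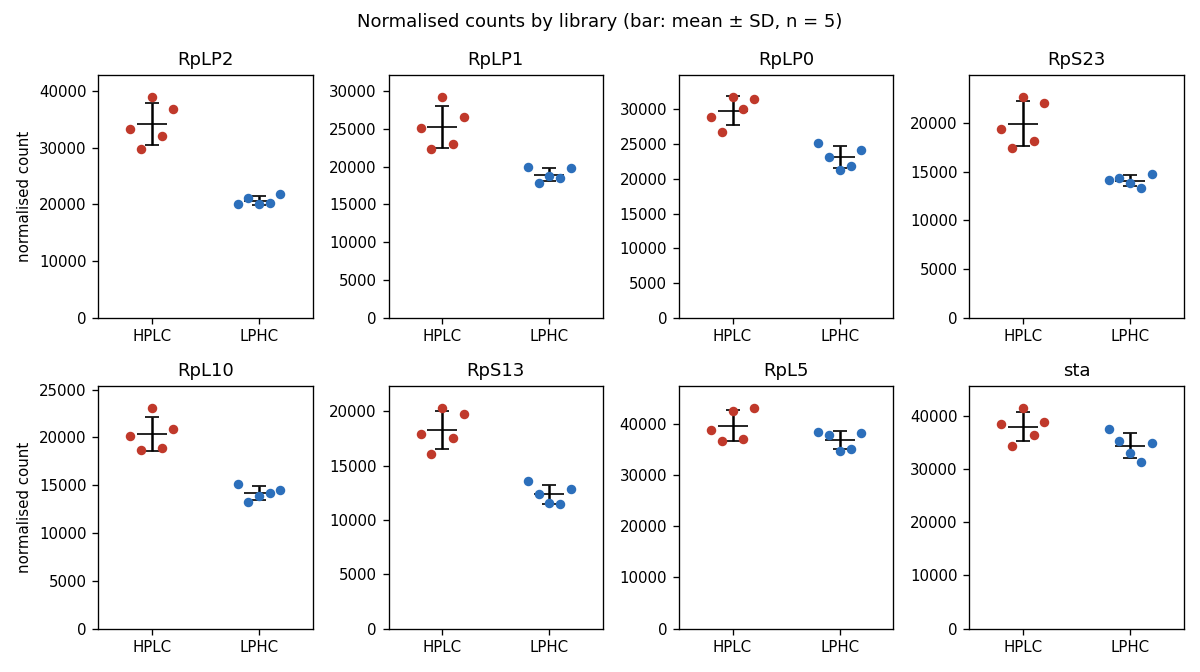
Normalised count in each of the 5 libraries of a diet for 8 ribosomal protein genes, HPLC left and LPHC right in each panel, with the mean ± SD as a bar and vertical axes that start at 0. In RpLP2, RpLP1, RpLP0, RpS23, RpL10 and RpS13 all HPLC libraries lie above all LPHC libraries, and in RpL5 and sta the diets overlap.

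Genes were also grouped by the place of their protein in the ribosome, a grouping made after their values were seen. At the rim of the tunnel through which the new peptide leaves the large subunit, 6 of 8 genes rose, with a median of 0.32. RpL19 was highest among them at 0.47 ± 0.08 (limma adjusted p = 8.73e-05), while RpL22 and RpL39 did not pass. At the mRNA entry of the small subunit, RpS3 rose by 0.25 ± 0.07 (0.0105), and RpS2 and RpS30 did not pass. At the mRNA exit and the site of leaving tRNA, 3 of 4 genes rose, RpS26 and RpS28b among them, and sta did not pass. Of all tested ribosomal protein genes 81.0% rose, and no test compared these places with each other. With upper-quartile scaling RpS3 was at 0.13 (limma adjusted p = 0.114) and RpS26 at 0.12 (0.163), and with quantile scaling they were at 0.12 (0.124) and 0.07 (0.368).

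Of the 84 tested genes 16 did not pass, and 13 of these had values above 0. The sta gene, whose protein sits near the mRNA exit, had 38636, 34428, 41643, 36571 and 39000 normalised counts on HPLC, against 37556, 35451, 33081, 31382 and 35000 on LPHC. The ranges overlapped, and the value of 0.14 ± 0.07 did not pass (limma adjusted p = 0.112). RpS6, the main ribosomal substrate of S6 kinase, averaged 34893 ± 2914 on HPLC and 30934 ± 2398 on LPHC, at 0.17 ± 0.07 (limma adjusted p = 0.0692). RpS2, near the mRNA entry, averaged 25129 ± 2026 on HPLC and 22307 ± 2318 on LPHC, at 0.17 ± 0.08 (0.0863). In these 3 genes the lowest HPLC library lay below the highest LPHC library. Overlaps of RpS6 with snoRNA:Or-aca2 and CR33222, on the same strand, sum to 16.9% of its exon bases.

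Close to the threshold were RpL22 at 0.19 ± 0.08 (limma adjusted p = 0.0533), RpS30 at 0.19 ± 0.08 (0.0575) and RpS27 at 0.26 ± 0.11 (0.0656). A long noncoding RNA gene lies on the same strand over 34.3% of the exon bases of RpL22. RpS30 is made as a fusion to a ubiquitin-like protein. RpL39, a very short protein in the wall of the exit tunnel, was at 0.24 ± 0.11 (0.101), and RpL29 at 0.15 ± 0.09 (0.218). Without HPLC library 2, the limma adjusted p was 0.00991 for RpL22, 0.0116 for RpS30, 0.0467 for RpS27, 0.0317 for RpS6 and 0.0492 for RpS2. Without HPLC library 4 RpS27 was at 0.0392, and without LPHC library 1 RpS6 and RpS2 were at 0.0246 and 0.0213. With DESeq2 the adjusted p was 0.0258 for RpL22, 0.0290 for RpS30, 0.0348 for RpS27 and 0.0402 for RpS6, and with TMM scaling RpL22 and RpS30 passed (limma adjusted p = 0.0399 and 0.0424). Scaled to neuron markers all 7 ribosomal protein genes of this paragraph and sta passed. All of the 7 were lower in HPLC library 2 than in HPLC library 3.

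RpL21 and RpL38 stood closest to no difference in the large subunit, and RpS15Ab in the small. RpL21 had 21038, 19694, 24945, 20613 and 23297 normalised counts on HPLC, against 21205, 19460, 19530, 20037 and 21521 on LPHC. RpL38 had 3125, 3249, 4835, 2991 and 3517 on HPLC, against 3457, 2846, 3410, 3676 and 3561 on LPHC. In RpL38 HPLC library 3 stood alone above all others, and the other HPLC libraries lay within the range of LPHC. The values were 0.10 ± 0.07 for RpL21 (limma adjusted p = 0.261) and 0.05 ± 0.11 for RpL38 (0.774). Signs were not stable for either gene: quantile and upper-quartile scaling gave −0.02 and −0.01 for RpL21 and −0.02 and −0.06 for RpL38, and without HPLC library 3 RpL38 was at −0.07. Scaled to neuron markers RpL21 passed at 0.27 (limma adjusted p = 0.0377).

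At the lower edge of the genes that rose were RpL3, which reaches toward the centre that joins amino acids, at 0.18 ± 0.07 (limma adjusted p = 0.0475), and RpL7A at 0.18 ± 0.06 (0.0358). Overlaps of RpL3 with an antisense RNA gene and a snoRNA gene sum to 22.2% of its exon bases. RpL3 lost its call when any of 8 libraries was left out (limma adjusted p up to 0.131, without HPLC library 5). RpL7A lost its call when any of 7 was left out (up to 0.0793, without LPHC library 4). RpL41, RpL37A, RpS29 and RpS12 also lost their calls in 4, 3, 3 and 2 such runs. With quantile and upper-quartile scaling RpL3 was at 0.03 (limma adjusted p = 0.748) and 0.07 (0.407), and RpL7A at 0.03 (0.632) and 0.07 (0.397). RpL3 also missed the threshold without a filter (0.0563) and with a replicate block (0.0585). In some setting the limma adjusted p of RpL41, RpL37A, RpS29 and RpS12 reached 0.137, 0.181, 0.276 and 0.175. Across all 22 ways of processing, 46 of the 68 genes stayed past the threshold and higher on HPLC, RpLP2 and RpL10 among them. With upper-quartile scaling, which lowered the median of all genes to −0.14, 49 rose and 1 fell, beside 17.0% higher and 38.7% lower of all genes. With quantile scaling, also at −0.14, 52 rose and 1 fell, beside 17.0% and 39.4% of all genes. Scaled to the summed neuron markers, which put the median of all genes at 0.13, 80 rose and 0 fell, beside 30.3% and 2.45% of all genes. With TMM scaling 70 rose and 0 fell (23.0% and 16.2% of all genes), with DESeq2 72 rose and 0 fell (22.4% and 19.6%), and with only genes of a mean of at least 50 it was 68 and 0 of 82 (22.8% and 20.4%).

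Several ribosomal proteins have a pair of genes, written a and b. The list held 9 such pairs, and in 7 both genes were in the table. Their balance was taken as the log2 ratio of the first to the second gene in each library and tested by an exact permutation of the diets over the libraries (252 arrangements), with p-values adjusted over the 5 pairs that could be tested. The smallest p this test can give is 0.00794. The genes of a pair are similar in sequence, so reads may have been shared between them, and how the counting treated such reads is not given in the sources used here.

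The proteins RpS15Aa and RpS15Ab are versions of uS8, which binds the central domain of the small-subunit RNA. RpS15Aa had 19708, 18207, 22606, 19000 and 22982 normalised counts on HPLC, against 16327, 16426, 15040, 15433 and 16394 on LPHC, and rose by 0.36 ± 0.07 (limma adjusted p = 0.000739). RpS15Ab had 737, 780, 976, 828 and 974 on HPLC, against 889, 923, 791, 799 and 928 on LPHC, at −0.02 ± 0.08 (0.881). RpS15Aa was apart between the diets and RpS15Ab overlapped. Per kilobase of exon, RpS15Aa made up 94.8% ± 0.299 of the pair on HPLC and 93.4% ± 0.242 on LPHC (SD, n = 5 each). The log2 ratio was 4.58 ± 0.09 on HPLC and 4.20 ± 0.06 on LPHC, without overlap in 5 of 5 libraries. The difference of 0.38 reached the smallest possible p (exact permutation p = 0.00794, adjusted 0.0198). The sign of RpS15Ab alone was not stable: it was at 0.14 when scaled to neuron markers and between 0.01 and 0.03 without HPLC library 1 or 2 or LPHC library 2 or 5.

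RpL37a supplied nearly all transcripts of its pair, and RpL37b was near the filter. RpL37a had 26207, 22291, 28736, 23316 and 27120 normalised counts on HPLC, against 24823, 22004, 22028, 21208 and 23377 on LPHC, overlapping, at 0.17 ± 0.08 (limma adjusted p = 0.0897). RpL37b had 11.2, 10.1, 14.2, 11.0 and 12.6 on HPLC, against 18.1, 15.2, 16.7, 16.1 and 16.8 on LPHC, at −0.46 ± 0.21 (0.0949). RpL37b was the only tested ribosomal protein gene with every HPLC library below every LPHC library, on 56 reads in all on HPLC and 92 on LPHC. The log2 ratio of the pair was higher on HPLC by 0.63, without overlap (exact permutation p = 0.00794, adjusted 0.0198). With upper-quartile and quantile scaling RpL37b fell, by 0.57 (limma adjusted p = 0.0346) and by 0.59 (0.0251). Without HPLC library 2, RpL37a passed at 0.21 (limma adjusted p = 0.0341).

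In the RpL34 pair the gene written second was the larger source. RpL34a had 3139, 2631, 3673, 2928 and 2980 normalised counts on HPLC, against 3049, 2491, 2635, 2599 and 2639 on LPHC, overlapping, at 0.19 ± 0.08 (limma adjusted p = 0.0657). RpL34b had 17805, 15506, 21408, 16642 and 18013 on HPLC, against 15500, 13912, 15571, 14160 and 14558 on LPHC, and rose by 0.27 ± 0.08 (0.0105) with a small overlap. Per kilobase of exon, RpL34a was 20.4% ± 0.429 of the pair on HPLC and 21.4% ± 0.909 on LPHC. The log2 ratio differed by −0.08, which did not pass (exact permutation p = 0.0556, adjusted 0.0794). Without LPHC library 3 it was −0.11 (exact permutation, adjusted p = 0.0132). RpL34a itself passed without HPLC library 2 (0.24, limma adjusted p = 0.0219) and without LPHC library 1 (0.24, 0.0249), and RpL34b did not pass with quantile scaling (0.17, 0.0617) or upper-quartile scaling (0.16, 0.100).

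The RpS14 pair, 2 copies of uS11 side by side in the genome and nearly the same in sequence, differed in balance by less than the spread between libraries. RpS14a had 12906, 11922, 15484, 12357 and 13852 normalised counts on HPLC, against 12704, 11140, 10594, 10408 and 11419 on LPHC, overlapping, and rose by 0.24 ± 0.08 (limma adjusted p = 0.0208). RpS14b had 4887, 4556, 6171, 5151 and 5627 on HPLC, against 4515, 4277, 4342, 3939 and 4522 on LPHC, apart by a narrow gap, and rose by 0.28 ± 0.08 (0.0068). Per kilobase, RpS14a was 63.2% ± 0.944 of the pair on HPLC and 63.9% ± 1.23 on LPHC. The log2 ratio differed by −0.04 (exact permutation p = 0.349, adjusted 0.349). RpS14a lost its call without HPLC library 5 (limma adjusted p = 0.0528), LPHC library 3 (0.0541) or LPHC library 4 (0.0564) and with both quantile and upper-quartile scaling, and RpS14b with upper-quartile scaling (0.0648).

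**Figure D3:**
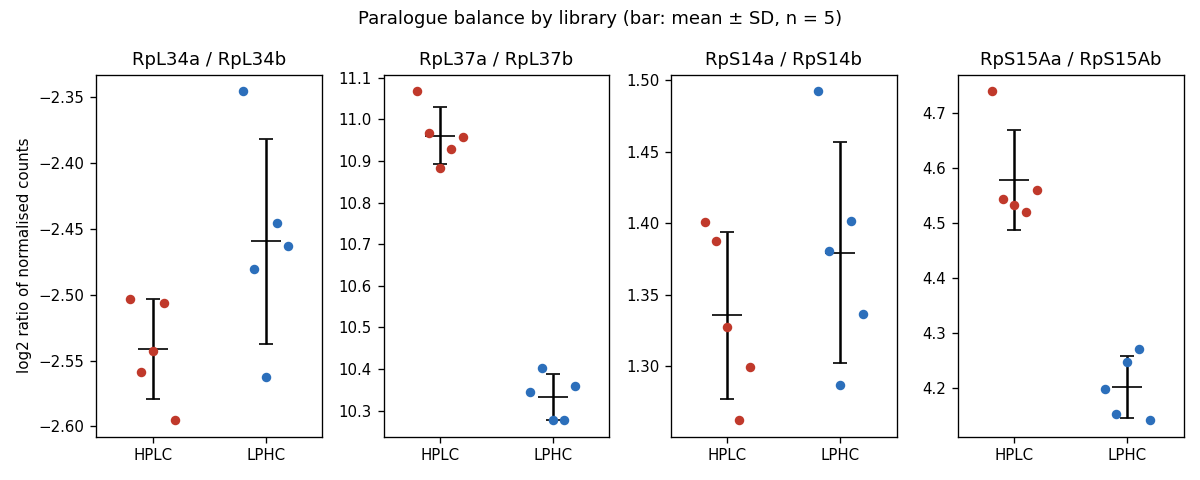
Log2 ratio of the normalised counts of the first to the second gene of 4 paralogue pairs in each library (vertical axes differ between panels and do not start at 0), HPLC left and LPHC right, with mean ± SD. The diets are apart in the RpL37 pair (higher on HPLC by 0.63) and the RpS15A pair (by 0.38), and overlap in the RpL34 and RpS14 pairs.

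RpS10a and RpS19b were under the filter and not tested. In the fly both are known for use in the germ line. RpS10a had 5.10, 5.91, 6.56, 5.48 and 5.27 normalised counts on HPLC, against 11.8, 9.44, 8.37, 11.8 and 14.9 on LPHC, which is 27 reads in all against 63. The diets did not overlap, with HPLC below. When genes were not filtered, RpS10a fell by 0.86 ± 0.26 on the log2 scale (limma adjusted p = 0.0166). RpS19b had 2.04, 2.53, 0, 0 and 1.05 on HPLC, against 2.09, 2.18, 4.19, 0 and 2.80 on LPHC, on 6 and 12 reads, at or under what 3 reads are worth in a library, so no fold is given. Their partners rose with the other members: RpS10b was at 0.30 ± 0.08 (limma adjusted p = 0.00573; 0.0576 with upper-quartile scaling) and RpS19a at 0.38 ± 0.07 (0.000386).

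RpS10b had 22983, 20325, 27002, 21461 and 23452 normalised counts on HPLC, against 21083, 17842, 18613, 17540 and 18400 on LPHC, overlapping through LPHC library 1. RpS19a had 19217, 17281, 22460, 18145 and 20559 on HPLC, against 15409, 14780, 14413, 14192 and 15746 on LPHC, without overlap. Of the pairs with 1 gene in the table, RpL10Ab, the protein uL1 beside the tRNA exit, had 18016, 16715, 20086, 16990 and 19838 on HPLC, against 14359, 14519, 13256, 13189 and 14389 on LPHC. It was apart between the diets and rose by 0.39 ± 0.07 (limma adjusted p = 0.000174). RpS28b, near the mRNA exit, had 15038, 13428, 19436, 13397 and 16913 on HPLC, against 11843, 11186, 11932, 11652 and 13110 on LPHC. It was apart by a narrow gap and rose by 0.38 ± 0.09 (0.0036). Their partners RpL10Aa and RpS28a are not analysed here.

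Vasa (vas), aub and piwi, genes of the germ line, and Rbp4, a gene of spermatocytes, were counted beside these low paralogues. The gene vas averaged 13.0 ± 2.15 normalised counts on HPLC and 21.4 ± 1.60 on LPHC, Rbp4 222 ± 21.6 on HPLC and 292 ± 26.8 on LPHC (SD, n = 5 each). The list held 8 germline genes, of which these 4 were in the table. Of the 4 genes, vas, Rbp4 and aub fell on HPLC (limma adjusted p = 0.0144, 0.00191 and 0.0445), each with no overlap, and piwi did not pass. Of all genes tested 18.9% fell, and in 11.7% HPLC lay wholly below LPHC. Scaled to the neuron markers none of the 4 passed, and aub also missed the threshold when any of 8 single libraries was left out. It missed as well with DESeq2 (adjusted p = 0.0578), TMM scaling (limma adjusted p = 0.0610), no filter (0.0534) and a replicate block (0.0762). With quantile scaling, where 39.4% of all genes fell, piwi passed (limma adjusted p = 0.0428). The part of these 4 genes in the counts of RpL37b, RpS10a and RpS19b was not tested.

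The rise was not equal in all HPLC libraries. Ribosomal protein genes took 6.12%, 5.49%, 7.02%, 5.69% and 6.34% of the reads in the HPLC libraries, against 5.54%, 5.002%, 4.95%, 4.81% and 5.28% in the LPHC libraries. HPLC library 2 lay below LPHC library 1, so the shares overlapped. The means were 6.13% ± 0.599 on HPLC and 5.12% ± 0.293 on LPHC (SD, n = 5 each). Measured gene by gene against the LPHC mean, the median of the 84 genes was 0.31, 0.14, 0.52, 0.22 and 0.42 in the HPLC libraries, and between −0.06 and 0.07 in the LPHC libraries. The number of genes above the highest LPHC library was 76, 51, 82, 63 and 81 in HPLC libraries 1 to 5. The same count was not made over all tested genes, so these numbers have no background share beside them.

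The coefficient of variation of a gene over the 5 libraries had a median of 10.9% on HPLC and 5.64% on LPHC across the 84 genes. The genes share their libraries, and how much of this spread lies between whole libraries was not tested. With HPLC library 2 left out 75 genes rose, the most of any library, beside 2071 of all 9896 genes tested. With HPLC library 5 left out 61 did, the fewest, beside 1993 of all genes. No ribosomal protein gene fell with any library left out, while 1476 to 1916 of all genes did.

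**Figure D4:**
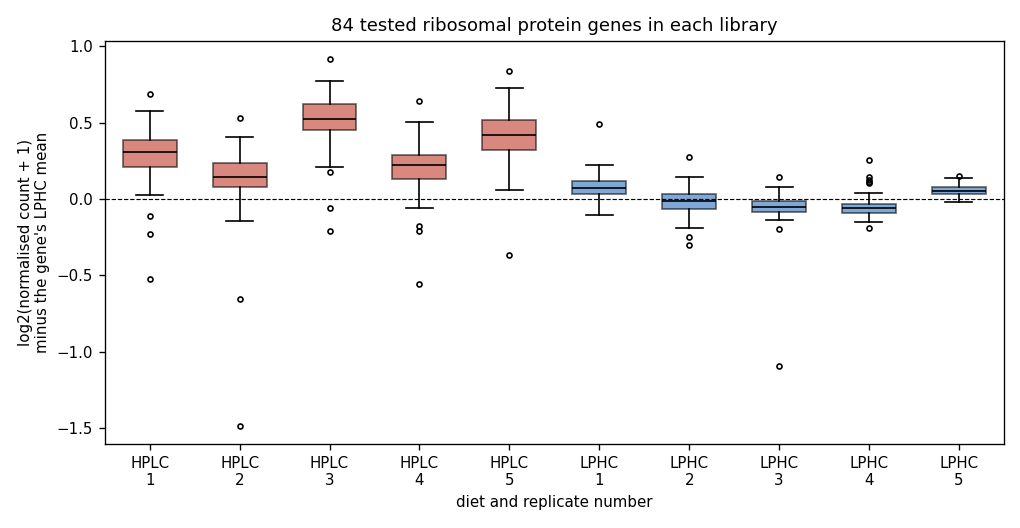
Distribution over the 84 tested ribosomal protein genes of log2(normalised count + 1) minus the gene's own LPHC mean, 1 box per library (box: quartiles, line: median, whiskers: to the last value within 1.5 box lengths, circles: beyond). HPLC libraries run from a median of 0.14 in library 2 to 0.52 in library 3, and LPHC libraries stay between −0.06 and 0.07.

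By rank, neither the level nor the length of a gene ordered the changes. Over the 84 genes, the log2 fold change had a Spearman rho of 0.03 with the mean level and of 0.02 with coding length, as a description across genes that share libraries. Pearson's r with the log2 level was 0.63, and RpL37b, among the lowest in level, lies at its low end. Of the 21 genes with the lowest mean 13 rose, and in the following groups of 21, by rising level, 21, 17 and 17 did. By chromosome, all 14 tested genes of 3L rose, with 14 of 17 on 2L, 14 of 19 on 2R, 14 of 18 on 3R, 11 of 15 on X and the 1 gene on chromosome 4. Of the genes that share exon bases with another gene 24 of 28 rose (median 0.35), and of those that do not 44 of 56 (median 0.30).

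Among the elongation factors, which carry tRNA to the ribosome and move it along, 6 of 7 rose and 1 fell, with a median of 0.78. Of all genes tested 22.1% rose and 18.9% fell. The factor eEF1alpha1, which delivers tRNA, had 132645, 110598, 129721, 122964 and 147450 normalised counts on HPLC, against 46688, 54981, 48134, 53117 and 56147 on LPHC, a log2 fold change of 1.31 ± 0.08 (limma adjusted p = 6.00e-10). Every HPLC library lay far above every LPHC library. A subunit of the factor that recharges it, eEF1gamma, rose by 0.92 ± 0.07 (5.69e-09) and eEF5, which helps the ribosome past difficult peptide bonds, by 0.85 ± 0.07 (2.36e-08). The second tRNA carrier, eEF1alpha2, had 31729, 34534, 33577, 35342 and 36674 on HPLC, against 36465, 40059, 39746, 40788 and 42310 on LPHC, and fell by 0.21 ± 0.06 on the log2 scale (0.0122), overlapping through 1 library of each diet. Scaled to the neuron markers eEF1alpha2 was at −0.05 and did not pass (0.679).

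Most genes that assemble ribosomes did not pass. Of 34 genes of snoRNA particles and nucleolar processing 2 rose (5.88%) and 0 fell, with a median of −0.03. Of all genes tested 22.1% rose and 18.9% fell. The 2 nucleolar genes that rose were Non1, a GTPase of large-subunit assembly, at 0.23 ± 0.07 (limma adjusted p = 0.0145), and Noa36, a nucleolar zinc finger protein, at 0.18 ± 0.07 (0.0472). Noa36 missed the threshold with DESeq2 (adjusted p = 0.0565), with edgeR (0.0621), without a filter (limma 0.0536), with quantile and upper-quartile scaling (0.471 and 0.429) and when any of 7 single libraries was left out (0.0566 to 0.110). With upper-quartile scaling 0 nucleolar genes rose and 7 fell, with quantile scaling 1 rose and 14 fell, and scaled to neuron markers 7 rose and 0 fell. Of all genes 17.0% rose and 38.7% fell with upper-quartile scaling, and 17.0% and 39.4% with quantile scaling. Scaled to neuron markers 30.3% of all genes rose and 2.45% fell. Of 7 genes of RNA polymerase I and its factors, which transcribe ribosomal RNA, 1 rose (14.3%) and 0 fell, with a median of −0.04. RpI12, a subunit of the polymerase, had 74.4, 68.4, 78.7, 79.5 and 79.0 normalised counts on HPLC, against 73.0, 55.2, 39.1, 47.2 and 56.9 on LPHC, overlapping in LPHC library 1 and rising by 0.51 ± 0.15 (limma adjusted p = 0.0153; 0.0545 with quantile scaling).

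Mitochondrial ribosomal proteins, which build the separate ribosomes of mitochondria, gave 0 called of 72 by limma, with a median of 0.00, and 1 at an unadjusted p under 0.05. The smallest p was that of mRpL46, with 522 ± 29.4 normalised counts on HPLC and 462 ± 49.9 on LPHC (limma adjusted p = 0.0633; 0.0110 without LPHC library 1). The edgeR and DESeq2 tests also called 0 in each direction. With quantile scaling 0 rose and 19 fell, with upper-quartile scaling 0 rose and 11 fell, and scaled to neuron markers 7 rose and 0 fell. Of all genes tested 22.1% rose and 18.9% fell in the main test. The share of all genes that fell was 39.4% with quantile and 38.7% with upper-quartile scaling, and 30.3% rose when scaled to neuron markers.

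**Figure D5:**
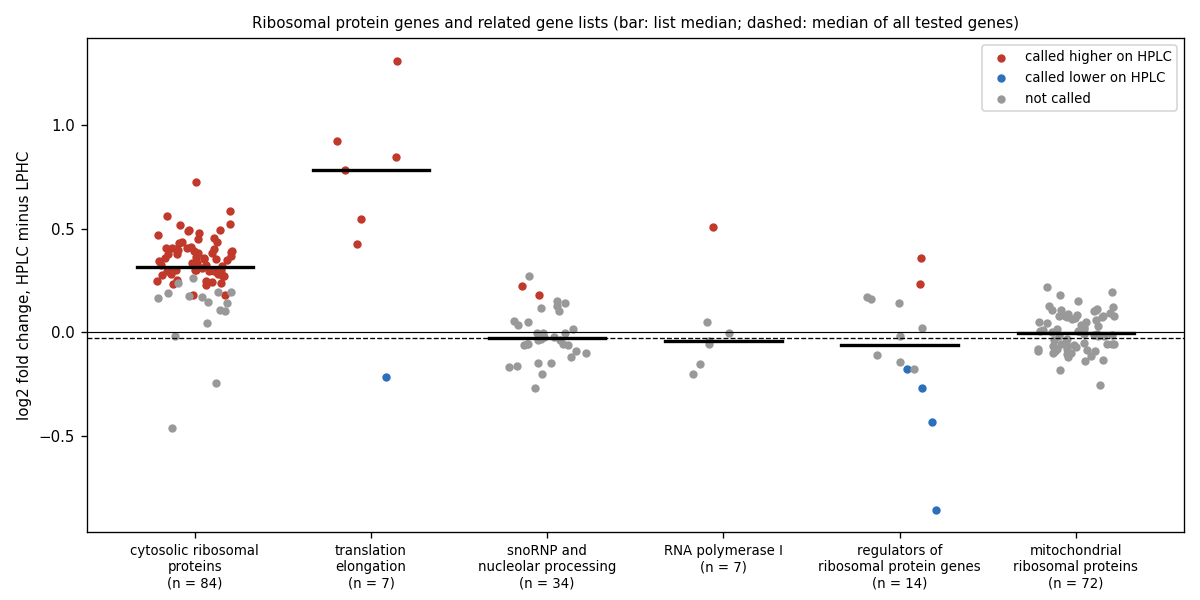
Log2 fold change (HPLC minus LPHC, vertical axis) of each tested gene in the cytosolic ribosomal protein list and 5 related lists, with the list median as a bar and the median of all tested genes (−0.03) dashed. Elongation factors (median 0.78) and cytosolic ribosomal proteins (0.31) lie mostly above 0, while nucleolar, RNA polymerase I, regulator and mitochondrial ribosomal protein genes lie around it.

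Of 14 genes that regulate ribosomal protein production 2 rose (14.3%) and 4 fell (28.6%), beside 22.1% and 18.9% of all genes tested, with a median of −0.06. Thor, the 4E-BP that holds back cap-dependent translation, had 3274, 3335, 3103, 2836 and 3337 normalised counts on HPLC, against 6379, 5604, 6200, 5202 and 5391 on LPHC, a log2 fold change of −0.86 ± 0.07 (limma adjusted p = 1.99e-08). The gene foxo, whose protein turns Thor on, rose by 0.36 ± 0.06 (0.000281) with no overlap. S6k, the kinase that phosphorylates RpS6, averaged 3759 ± 277 on HPLC and 3201 ± 269 on LPHC and rose by 0.23 ± 0.07 (0.0115; 0.147 with upper-quartile scaling), overlapping.

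Myc, the transcription factor that drives ribosome production in growing tissue, had 967, 813, 676, 815 and 853 normalised counts on HPLC, against 736, 1047, 1297, 1402 and 1174 on LPHC. It overlapped through LPHC library 1, and its fall of −0.43 ± 0.16 passed narrowly (limma adjusted p = 0.0496). Myc missed the threshold when any of 8 single libraries was left out (limma adjusted p from 0.063 to 0.136). Myc also missed it without a filter (0.0611), with a replicate block (0.0872) and when scaled to neuron markers (−0.27, 0.0674). Its partner Max fell by 0.27 ± 0.07 on the log2 scale (0.00621) and did not pass when scaled to neuron markers (−0.10). Dref, a factor that binds the promoters of growth genes, fell by 0.17 ± 0.06 (0.0186; 0.94 when scaled to neuron markers and 0.0563 without LPHC library 5). With upper-quartile scaling 1 regulator rose and 7 fell, with quantile scaling 2 rose and 7 fell, and scaled to neuron markers 5 rose and 1 fell. The share of all genes that fell under these scalings was 38.7%, 39.4% and 2.45%, in that order.

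Relatives of ribosomal proteins outside the name rule were mixed: of 5 tested, 2 rose (40%) and 1 fell (20%), beside 22.1% and 18.9% of all genes tested. Rack1, a scaffold on the head of the small subunit, averaged 29766 ± 2162 normalised counts on HPLC and 24866 ± 2024 on LPHC, at 0.26 ± 0.07 (limma adjusted p = 0.0082), but did not pass with upper-quartile scaling (0.092) or quantile scaling (0.194). Nacalpha, which binds new peptides at the tunnel exit, rose by 0.32 ± 0.07 (0.00205), without overlap. RpL24-like, an assembly factor that holds the place of RpL24 on the immature large subunit, had 4117, 3883, 4748, 4171 and 3998 on HPLC, against 6495, 6003, 6000, 5791 and 6094 on LPHC. It fell by 0.54 ± 0.06 on the log2 scale (1.82e-06) with no overlap, while RpL24 itself rose by 0.28 ± 0.07 (0.00502).

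Neuron markers were read in every library labelled as brain, and so were markers of other tissues and cell types. The fat body markers took 0.541% ± 0.0446 of reads on HPLC and 0.119% ± 0.0111 on LPHC (SD, n = 5 each). Of these, 11 of 11 tested were higher on HPLC, with a median of 2.29 and a range of 0.43 to 11.3. The 3 fat body markers under the filter had lower means on HPLC. Normalised counts on HPLC and LPHC averaged 7.93 and 11.4 for Fbp1, 2.15 and 3.05 for Lsp1gamma, and 1.19 and 1.87 for Fbp2. These low counts overlapped between diets and were not tested, and none of the 3 had 0 reads in a whole diet. Haemocyte markers took 0.132% on HPLC and 0.0849% on LPHC, with 6 of 11 higher (4 to 7 with a library left out). Glia markers took 0.214% and 0.197%, with 4 of 8 higher, and this count was 2 or 3 with a library left out, 2 with quantile and 0 with upper-quartile scaling. Neuron markers took 0.907% ± 0.0351 on HPLC and 1.07% ± 0.0859 on LPHC, with 4 of 15 lower. That count was 7 with DESeq2, 5 with edgeR, 2 with TMM and 12 with quantile or upper-quartile scaling, and 1 to 6 with a library left out (1 without LPHC library 3 or 4). Muscle markers took 0.520% on HPLC and 0.615% on LPHC, with 8 of 12 lower. Photoreceptor markers took 9.50% and 11.5%, with 2 of 12 lower (5 with quantile and 7 with upper-quartile scaling). Lower were 16.7% of photoreceptor, 26.7% of neuron and 66.7% of muscle markers, beside 18.9% of all genes tested. Higher were 54.5% of haemocyte and 50% of glia markers, beside 22.1% of all genes tested. With quantile and upper-quartile scaling 39.4% and 38.7% of all genes were lower. The part of these tissue and cell type markers in the ribosomal protein result was not tested.

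Within HPLC the share of neuron markers was 0.926%, 0.952%, 0.858%, 0.896% and 0.905% in libraries 1 to 5, and within LPHC it was 0.996%, 0.988%, 1.18%, 1.13% and 1.03%. The share of fat body markers was 0.568%, 0.485%, 0.502%, 0.558% and 0.589% in HPLC libraries 1 to 5, and between 0.105% and 0.132% in the LPHC libraries. Whether the ribosomal protein share moves with either share was not tested. When every library was scaled to its neuron markers, 80 of the 84 genes were higher and the median was 0.48. Under that scaling 30.3% of all genes tested were higher and 2.45% lower, and the median of all genes moved from −0.03 to 0.13.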

How the data were processed

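Brain RNA of male flies was sequenced in 10 libraries, 5 per diet by their titles. The deposited values are normalised counts, a signal never below 0. The submitters' processing notes name HISAT2, a read aligner. No version, counting tool, strand setting, annotation or build is given in the sources used here. Coordinates are therefore not printed. Of the deposited values 100% were whole reads (tolerance 1e-06) divided by 1 constant per library. The constants equalled recomputed DESeq2 size factors (ratio 1.00). Recovered reads per library ran from 19834344 to 38402635, and 3 reads are worth 2.09 to 4.19 normalised counts, a limit for counting error only.

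Computed here was limma-trend (limma 3.58.1, R 4.3.3, robust) on log2 of the normalised count plus 1, for 9896 genes with a mean of at least 10, adjusted by the Benjamini-Hochberg method, threshold 0.05. Pair ratios were tested by exact permutation, with both sides counted. The alternatives were edgeR 4.0.16 and DESeq2 1.42.0 on the recovered reads, scaling by TMM, upper quartile, quantiles or neuron markers, a filter at a mean of 50 or none, pseudocounts of 0.5 or 5, a replicate block, and each library left out. The tests were checked on simulated data in which few genes changed, equally in both directions, with the same noise setting for every gene. That check does not cover data in which many genes change or in which the scaling moves the counts. Exon lengths, overlaps and chromosomes came from the Ensembl annotation of BDGP6, which may differ from the authors' own.

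The members and lists were chosen with earlier results of these data known, and nothing is supported by that choice. Values in every library are given for RpLP2, RpL10, the 8 called members with the largest change, the 4 with the smallest, paralogue pairs, the P stalk, sta and the ubiquitin fusions. Most members that did not pass are named. A few members and 1 pair under this rule are not reported here, though counts and adjustments include them. Of each related list up to 3 called genes are named, or 1 where none was called, and Myc and Thor always. RpL11, RpL12, RpL19, RpL3, RpL7A, RpL24, RpL37A, RpL41, RpS3, RpS12, RpS26, RpS29 and eEF1alpha2 were named after their values were seen.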

Additional observations from a re-analysis of the deposited data

Results flagged for a closer look

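Of the 72 sets of 5 libraries checked for a value that stands apart from the other 4, 4 were picked out, and chance picks out about 1 in 20. RpL38 had its highest count in HPLC library 3, at 4835, with the other HPLC libraries between 2991 and 3517. The log2 ratio of RpS15Aa to RpS15Ab was highest in HPLC library 1, at 4.74, with the others between 4.52 and 4.56. RpL15 had its lowest LPHC count in library 2, at 13142, below a range of 14206 to 14452 in the others. RpL34a had its highest LPHC count in library 1, at 3049, above a range of 2491 to 2639. Without those libraries RpL38 was at −0.07, the RpS15A pair differed by 0.34, RpL15 was at 0.50 (limma adjusted p = 9.43e-05) and RpL34a was at 0.24.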

How the results depend on the processing

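The count of ribosomal protein genes that rose (68) stayed within 1.5 times under every alternative. It was 70 with TMM, 68 with edgeR, 72 with DESeq2, 67 without a filter, and 68 with a mean of at least 50 or a pseudocount of 0.5 or 5. Of all genes 21.8% rose and 18.9% fell with edgeR, 18.9% and 15.5% without a filter, and 22.1% and 18.9% with either pseudocount. Leaving out 1 library gave 61 to 75 (36 to 43 of the large and 25 to 32 of the small subunit), with 0 fallen. Over all genes these runs gave 1972 to 2228 risen and 1476 to 1916 fallen. Upper-quartile scaling took the small subunit to 18. The 1 gene that fell was RpL37b with quantile or upper-quartile scaling and RpS10a without a filter. Over all genes, 1866 fell in the main test, against 242 scaled to neuron markers, 3902 with quantile and 3832 with upper-quartile scaling. The cause was not tested. Risen nucleolar genes numbered 1 with DESeq2, edgeR, no filter or quantile scaling, 7 scaled to neuron markers and 0 with upper-quartile scaling, and 1 to 3 with a library left out (fallen 0 to 2). With quantile scaling 14 nucleolar, 2 RNA polymerase I (0 risen), 7 regulator and 19 mitochondrial genes fell, and with upper-quartile scaling 7, 1, 7 and 11. With upper-quartile scaling 1 regulator rose, and with either scaling 1 relative. Scaled to neuron markers 5 regulators and 7 mitochondrial genes rose, 1 regulator fell and 0 elongation factors fell. With a library left out, 2 to 3 regulators rose and 2 to 5 fell, and 0 to 1 mitochondrial genes moved in each direction. Signs turned for RpL5 (quantile −0.042, upper-quartile −0.0059), RpL21 (−0.020, −0.0089), RpL38 (−0.017, −0.065) and RpS15Ab (neuron markers 0.14). With a library left out RpL38 ran from −0.071 to 0.10 and RpS15Ab from −0.066 to 0.035. With a library left out, pair differences ran from −0.11 to −0.053 (RpL34), 0.60 to 0.65 (RpL37), −0.07 to −0.02 (RpS14) and 0.34 to 0.39 (RpS15A). By replicate number no pairing of the libraries was seen: same-numbered libraries correlated between −0.02 and 0.01, none best with its own number. The titles also give each library another number, which differs from its replicate number in most, and pairing by it was not tried. A replicate block gave 70 risen, beside 21.7% of all genes. Depth limits RpL37b, RpS10a and RpS19b, at 6 to 92 reads per diet.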
